A study of Mus musculus with 12 samples.

Results

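Transcript levels of 9 genes that mark the cells lining blood vessels (endothelial cells) were followed across RNA sequencing libraries of mouse testis. The genes are Cdh5, Pecam1, Esam, Tie1, Tek, Eng, Kdr, Flt1 and Vwf, and their rows were found by NCBI Gene ID, 9 of the 22221 rows of the table. The 12 libraries fall into 4 groups of 3, all from ICR mice, an outbred stock. IMA10 mice had busulfan, a DNA-alkylating agent toxic to dividing germ cells, followed by a transplant of gut microbiota whose donors got alginate oligosaccharide, 10 mg/kg (Aligina Oligosaccharide in the labels). IMC mice had busulfan and then gut microbiota from donors given ddH2O, and Sa mice had busulfan and then saline. Con mice had no treatment. Busulfan was given as a single dose at 3 weeks of age, the microbiota over the next 2 weeks, and testes were taken after 3 weeks more. The age of the Con mice is not labelled, and Con columns carry another name prefix than the other columns, so a batch and the untreated state cannot be told apart.

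Vessels of the testis run between the seminiferous tubules, among Leydig cells and macrophages, and carry hormones and nutrients to and from the tubules. Endothelial cells hold to each other through VE-cadherin (Cdh5), PECAM-1 (Pecam1) and ESAM (Esam), and store von Willebrand factor (Vwf) for release at sites of injury. They sense vascular endothelial growth factors through VEGFR2 (Kdr), the main signalling receptor, and VEGFR1 (Flt1), which binds VEGF-A tightly, signals weakly and is also made as a soluble decoy. Angiopoietins act through TIE2 (Tek) and its partner TIE1 (Tie1), and endoglin (Eng) is a co-receptor for BMP9 and other ligands of the TGF-beta family.

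Values are the authors' FPKM, which are scaled by gene length and library total, so that levels can be set beside each other between genes. Spermatid transcripts (Prm1, Prm2, Tnp1, Tnp2, Acr, Spem1, Tssk6 and Odf1) summed to 29.4 to 3184 FPKM in IMA10, 100 to 229 in IMC, 188 to 1866 in Sa and 35696 to 38007 in Con. One library stood apart from its group. Over the 15472 genes tested, log2 values of IMA10 replicate 3 had a correlation of 0.61 and 0.71 with IMA10 replicates 1 and 2 and of 0.92 to 0.93 with the Con libraries, while IMA10 replicates 1 and 2 had 0.97 with each other. It also held the 3184 FPKM of spermatid transcripts, so the main results of IMA10 are also given without it.

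The endothelial genes stood at a higher level in all 3 busulfan groups than in Con, with Flt1 as the exception. Summed over the 9 genes, IMA10 libraries held 98.3, 91.2 and 29.4 FPKM, IMC libraries 92.7, 80.1 and 105, Sa libraries 84.7, 93.8 and 136, and Con libraries 22.4, 21.5 and 16.9. The group mean of this sum was 3.60-fold (IMA10, and 4.68-fold without replicate 3), 4.58-fold (IMC) and 5.17-fold (Sa) that of Con. In bulk tissue, a larger share of endothelial cells and more RNA per endothelial cell cannot be told apart. All 9 genes passed the filter of at least 1 FPKM in at least 3 libraries, but Tek and Tie1 passed it only through busulfan libraries, where they are high. Counts over all 9 are therefore a description, and the other 7 genes reached 1 FPKM in every Con library.

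**Figure D1:**
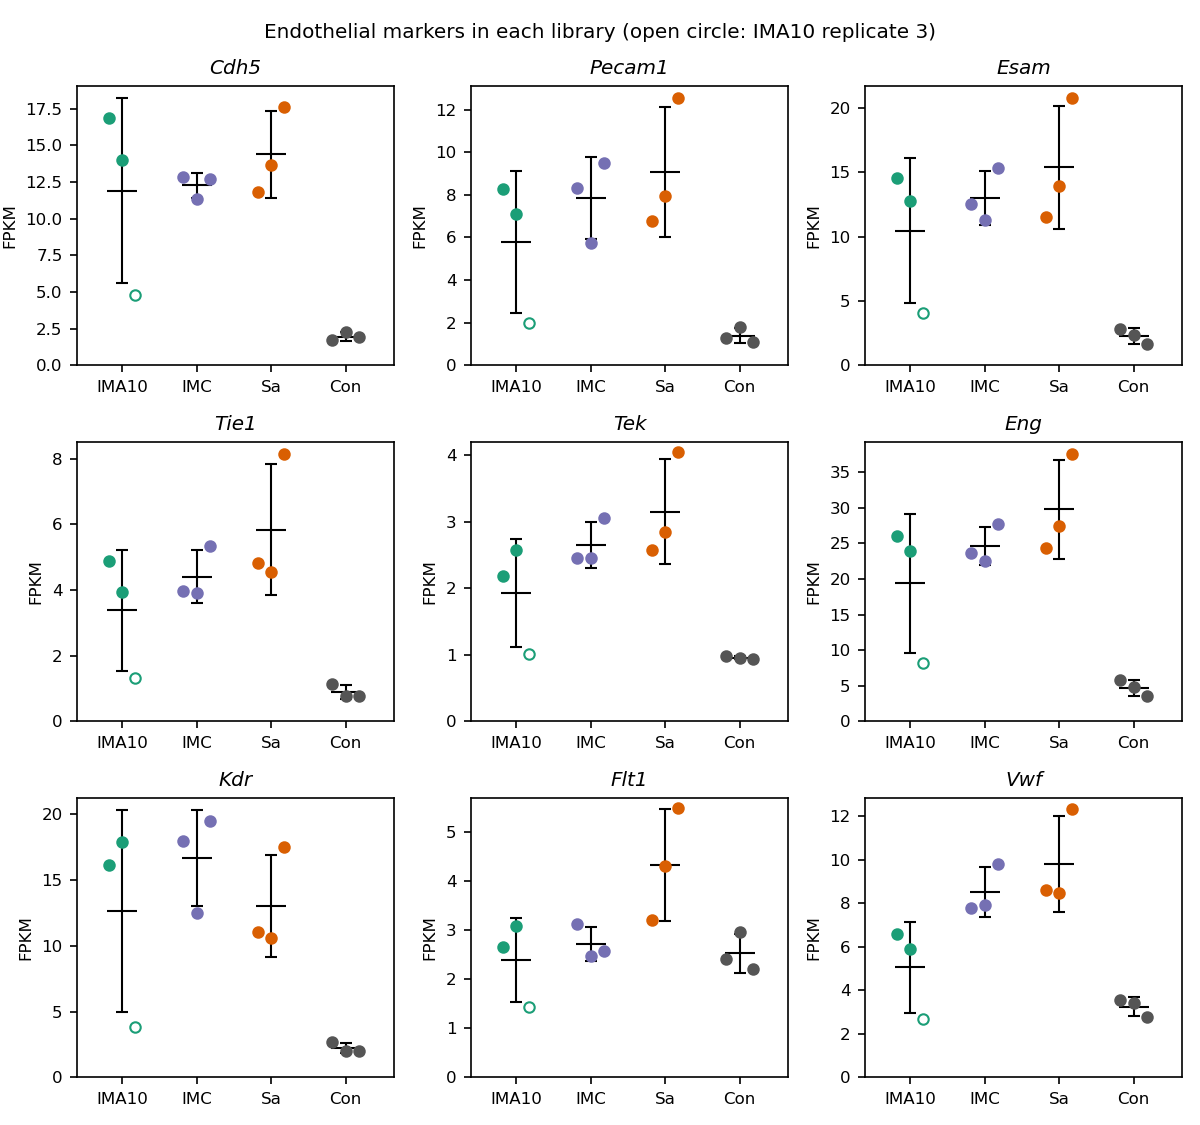
FPKM of each endothelial gene in each library (points), with group means and SD bars (n = 3), for IMA10, IMC, Sa and Con; the y axes start at 0 and differ between panels. The open circle, IMA10 replicate 3, is the lowest busulfan library for all 9 genes, and Sa replicate 3 is the highest of the 12 libraries for 8 genes.

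In Sa minus Con, 9 of the 9 genes rose (limma, adjusted p under 0.05), with a median log2 change of 2.04, against 52.0% of all genes that rose, 19.2% that fell and a median over all genes of 0.60. In IMC minus Con, 8 of 9 rose with a median of 1.87, against 50.8% of all genes that rose, 23.3% that fell and a median of 0.52. In IMA10 minus Con, 7 of 9 rose with a median of 1.35, against 47.7% of all genes that rose, 23.9% that fell and a median of 0.41. Without IMA10 replicate 3 the number was 8 and the median 1.86, while it was 4 without IMA10 replicate 1 and 4 without IMA10 replicate 2. Among the 7 genes that reached the filter in Con alone, 7 rose in Sa, 6 in IMC and 5 in IMA10, where of the 12386 genes that did so 44.4% (Sa), 43.1% (IMC) and 41.2% (IMA10) rose. The 3 comparisons share the Con libraries, so they are not independent of each other. The libraries of the 2 groups did not overlap for 9 of 9 genes in Sa, 8 in IMC and 7 in IMA10, where 56.9% (Sa), 55.1% (IMC) and 49.3% (IMA10) of all genes stood wholly above Con.

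Among the junction genes, Cdh5 (Gene ID 12562) is the cadherin that holds endothelial cells together. It had 16.9, 14.03 and 4.82 FPKM in IMA10, 12.8, 11.3 and 12.7 FPKM in IMC and 11.9, 13.7 and 17.6 FPKM in Sa, against 1.71, 2.29 and 1.91 FPKM in Con. Every busulfan library lay above every Con library. Group means were 11.9 ± 6.31 FPKM in IMA10, 12.3 ± 0.84 in IMC, 14.4 ± 2.94 in Sa and 1.97 ± 0.295 in Con (SD, n = 3 each). On the log2(FPKM + 1) scale used for all tests, it rose by 1.97 ± 0.36 in IMA10 (SE, adjusted p = 0.00125, and 2.47 without replicate 3), by 2.16 ± 0.36 in IMC (adjusted p = 0.000478) and by 2.36 ± 0.36 in Sa (adjusted p = 0.000396).

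Pecam1 (18613) encodes an adhesion molecule of endothelial cells that platelets and leukocytes carry too. It had 8.26, 7.08 and 2.01 FPKM in IMA10, 8.34, 5.73 and 9.49 FPKM in IMC and 6.76, 7.95 and 12.5 FPKM in Sa, against 1.28, 1.80 and 1.12 FPKM in Con. The lowest busulfan value, that of IMA10 replicate 3, lay just above the highest Con value. Pecam1 rose by 1.35 ± 0.40 in IMA10 (adjusted p = 0.013), by 1.87 ± 0.40 in IMC (adjusted p = 0.002) and by 2.04 ± 0.40 in Sa (adjusted p = 0.00126). The IMA10 call was lost without IMA10 replicate 1 (adjusted p = 0.0521) and without IMA10 replicate 2 (0.0538), and without IMA10 replicate 3 the change was 1.86 (adjusted p = 6.45e-05).

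Esam (69524), an immunoglobulin-like molecule of endothelial tight junctions, ran close to Cdh5. It had 14.6, 12.8 and 4.06 FPKM in IMA10, 12.5, 11.3 and 15.4 FPKM in IMC and 11.5, 13.9 and 20.8 FPKM in Sa, against 2.83, 2.37 and 1.64 FPKM in Con, with no overlap. It rose by 1.67 ± 0.40 in IMA10 (adjusted p = 0.00439, and 2.18 without replicate 3), by 2.10 ± 0.40 in IMC (adjusted p = 0.00094) and by 2.30 ± 0.40 in Sa (adjusted p = 0.000619). In linear FPKM, the means of the 3 junction genes were 4.13- to 6.05-fold those of Con in IMA10, 5.61- to 6.24-fold in IMC and 6.49- to 7.30-fold in Sa.

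The receptors of the TIE family were less abundant, and the partner receptor Tie1 moved further than the angiopoietin receptor Tek. Tie1 (21846) had 4.88, 3.94 and 1.32 FPKM in IMA10, 3.98, 3.91 and 5.33 FPKM in IMC and 4.83, 4.55 and 8.13 FPKM in Sa, against 1.14, 0.77 and 0.77 FPKM in Con. It rose by 1.11 ± 0.33 in IMA10 (adjusted p = 0.0135, and 1.52 without replicate 3), by 1.51 ± 0.33 in IMC (adjusted p = 0.0023) and by 1.82 ± 0.33 in Sa (adjusted p = 0.000821). As with Pecam1, its IMA10 call was lost without IMA10 replicate 1 (adjusted p = 0.0539) or IMA10 replicate 2 (0.0527).

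Tek (21687) had 2.19, 2.57 and 1.01 FPKM in IMA10, 2.46, 2.45 and 3.05 FPKM in IMC and 2.57, 2.84 and 4.04 FPKM in Sa, against 0.98, 0.95 and 0.94 FPKM in Con. IMA10 replicate 3 was within 0.1 FPKM of the Con libraries, and the other 8 busulfan libraries were well above them. Tek rose by 0.90 ± 0.22 in IMC (adjusted p = 0.00443) and by 1.07 ± 0.22 in Sa (adjusted p = 0.00169). In IMA10 its change of 0.54 ± 0.22 passed narrowly (adjusted p = 0.0497). That call was lost when any 1 of IMA10 replicates 1 and 2, Sa replicates 1 and 2, the 3 IMC libraries or the 3 Con libraries was left out, with adjusted p between 0.0569 (without Sa replicate 1) and 0.178 (without IMA10 replicate 2), and it was 0.000885 without IMA10 replicate 3.

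Eng (13805) was the most abundant of the 9 genes in every group. It had 26.1, 23.9 and 8.19 FPKM in IMA10, 23.7, 22.5 and 27.7 FPKM in IMC and 24.3, 27.5 and 37.5 FPKM in Sa, against 5.77, 4.90 and 3.52 FPKM in Con, with no overlap. It rose by 1.70 ± 0.38 in IMA10 (adjusted p = 0.00296, and 2.20 without replicate 3), by 2.18 ± 0.38 in IMC (adjusted p = 0.000574) and by 2.42 ± 0.38 in Sa (adjusted p = 0.000408). The RefSeq annotation places Eng in overlap with Fpgs, an enzyme of folate metabolism, and whether counting used strand is not given in the sources used here. Fpgs averaged 9.20 ± 3.84 FPKM in IMA10, 10.1 ± 2.01 in IMC, 11.6 ± 1.51 in Sa and 12.2 ± 1.68 in Con (SD, n = 3 each), and its change in Sa minus Con was -0.06 (adjusted p = 0.831). Cdh5, Kdr and Flt1 each overlap a predicted gene in that annotation.

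The VEGF receptors parted from each other. Kdr (16542) had 16.1, 17.9 and 3.83 FPKM in IMA10, 17.9, 12.5 and 19.5 FPKM in IMC and 11.01, 10.6 and 17.5 FPKM in Sa, against 2.71, 2.04 and 2.02 FPKM in Con. All 9 busulfan libraries exceeded the Con libraries, and Kdr was the only gene of the 9 with its highest mean in IMC. It rose by 1.84 ± 0.46 in IMA10 (adjusted p = 0.00547, and 2.47 without replicate 3), by 2.42 ± 0.46 in IMC (adjusted p = 0.00095) and by 2.08 ± 0.46 in Sa (adjusted p = 0.00237).

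Flt1 (14254) had 2.66, 3.09 and 1.44 FPKM in IMA10, 3.12, 2.47 and 2.58 FPKM in IMC and 3.20, 4.30 and 5.49 FPKM in Sa, against 2.41, 2.97 and 2.20 FPKM in Con. Only the Sa libraries lay wholly above Con, by a gap between 3.20 FPKM in Sa replicate 1 and 2.97 FPKM in Con replicate 2. The change was 0.58 ± 0.23 in Sa (adjusted p = 0.043), 0.08 ± 0.23 in IMC (adjusted p = 0.756) and -0.08 ± 0.23 in IMA10 (adjusted p = 0.755, and 0.14 without replicate 3). With median-of-ratios scaling Flt1 fell in IMA10 by 0.51 (adjusted p = 0.0488). Relative to the median of all genes the Sa change was -0.02, and after median-of-ratios scaling it was -0.03 (adjusted p = 0.89). The Sa call was also lost when any 1 of the 3 IMC libraries, Sa replicates 2 and 3 or the 3 Con libraries was left out, with adjusted p between 0.0529 (without Con replicate 2) and 0.156 (without Sa replicate 3). In linear FPKM the Kdr mean was 5.59-fold (IMA10), 7.37-fold (IMC) and 5.78-fold (Sa) that of Con, and the Flt1 mean 0.949-fold (IMA10), 1.08-fold (IMC) and 1.71-fold (Sa). The gene-level FPKM does not separate the membrane form of Flt1 from its soluble form.

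Vwf (22371), the multimeric protein that tethers platelets and carries clotting factor VIII, had a smaller change than Cdh5 in each comparison. It had 6.58, 5.90 and 2.67 FPKM in IMA10, 7.80, 7.93 and 9.82 FPKM in IMC and 8.60, 8.48 and 12.4 FPKM in Sa, against 3.54, 3.44 and 2.76 FPKM in Con. IMC and Sa stood wholly above Con, while IMA10 replicate 3 lay below all 3 Con libraries. Vwf rose by 1.16 ± 0.27 in IMC (adjusted p = 0.00339) and by 1.33 ± 0.27 in Sa (adjusted p = 0.0016). In IMA10 its change was 0.45 ± 0.27 (adjusted p = 0.161), and 0.77 without IMA10 replicate 3 (adjusted p = 0.002).

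**Figure D2:**
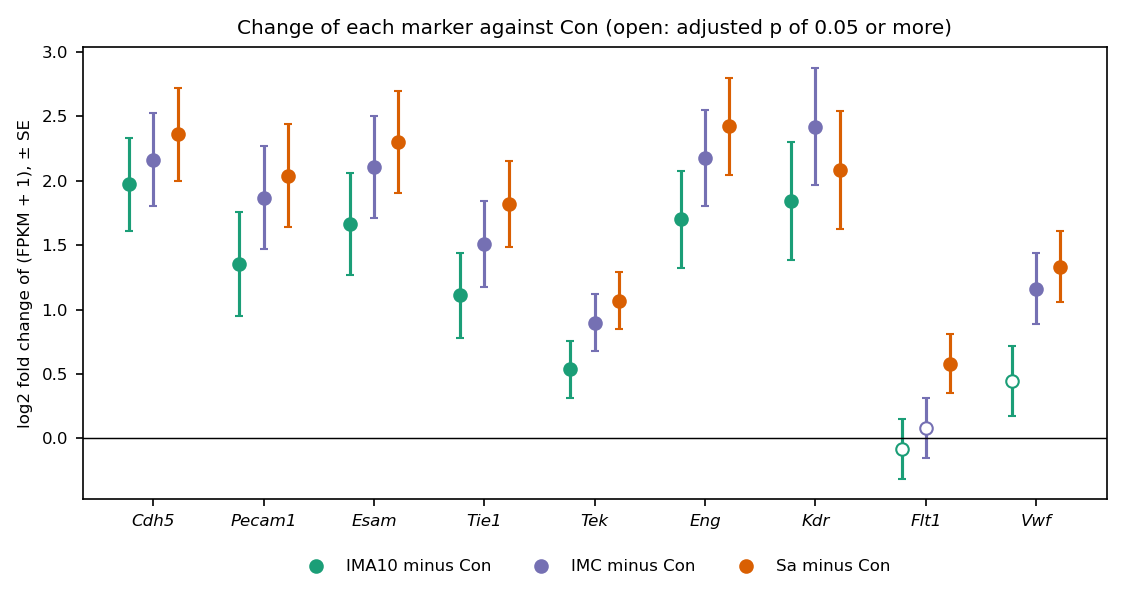
Log2 change of (FPKM + 1) against Con for each endothelial gene in IMA10, IMC and Sa (points, with SE bars from limma); filled points have an adjusted p under 0.05. Cdh5, Eng, Esam and Kdr sit at or above 1.67 in all 3 comparisons, whereas Flt1 lies between -0.08 and 0.58.

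The size of these changes depends on how libraries are scaled. The median change over all genes was positive in all 3 comparisons with Con, and median-of-ratios scaling lowered it by 0.63 in Sa minus Con, 0.56 in IMC minus Con and 0.43 in IMA10 minus Con. Relative to the median of all genes, the Sa changes were 1.82 for Eng, 1.76 for Cdh5, 0.73 for Vwf and 0.46 for Tek. With quantile normalization the calls for Vwf (adjusted p = 0.101) and Tek (0.129) in Sa were lost. In IMC both were lost under it as well (0.146 for Vwf and 0.176 for Tek), and Vwf was lost with median-of-ratios scaling (0.0597). In IMA10, quantile normalization also ended the calls for Pecam1 (0.0579) and Tie1 (0.0662), and that for Tek was lost with quantile normalization (0.276), with median-of-ratios scaling (0.328) and with no filter (0.07). With median-of-ratios scaling, 5831 genes rose and 6060 fell in Sa minus Con, against 8052 and 2963 with FPKM as deposited. The same scaling gave 6027 rises and 6276 falls in IMC minus Con, against 7862 and 3603, and 5714 rises and 5736 falls in IMA10 minus Con, against 7383 and 3694.

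The order of abundance among the 9 genes was not the same in busulfan and Con testes. Flt1 stood above Tek alone in IMA10, IMC and Sa, whereas in Con it stood behind Eng and Vwf alone. Mean levels in Con ran Eng 4.73, Vwf 3.25, Flt1 2.53, Esam 2.28, Kdr 2.26, Cdh5 1.97, Pecam1 1.40, Tek 0.957 and Tie1 0.893 FPKM. Group means ran Sa, IMC, IMA10 and Con from high to low for 7 genes. Neighbouring busulfan groups in that order overlapped for 6 of these 7 genes, and for Vwf the IMC and IMA10 libraries were apart.

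The ratio of 2 genes within a library does not depend on the library total, and it was compared between the 9 busulfan libraries and the 3 Con libraries by an exact two-sided permutation test. The 9 pool 3 treatments and are not replicates of a single condition. The smallest p that 220 arrangements allow is 0.00455, and p-values were adjusted over 6 ratios. These ratios were chosen with earlier results of these data known, and the adjustment does not cover that choice. A single busulfan group against Con, 3 libraries against 3, allows no exact p under 0.1. Flt1 over Kdr was 0.165, 0.173 and 0.376 in IMA10, 0.174, 0.197 and 0.133 in IMC and 0.291, 0.405 and 0.314 in Sa, against 0.889, 1.46 and 1.09 in Con. No busulfan library came near a Con library. The difference in mean log2 ratio, busulfan minus Con, was -2.28 (means -2.12 ± 0.58 in the busulfan libraries and 0.16 ± 0.36 in Con, SD, n = 9 and 3; exact p = 0.00455, adjusted p = 0.00909).

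Tie1 over Tek was 2.23, 1.53 and 1.31 in IMA10, 1.62, 1.60 and 1.75 in IMC and 1.88, 1.60 and 2.01 in Sa, against 1.16, 0.811 and 0.819 in Con. The 2 sets did not overlap, and the difference was 0.89 on the log2 scale (exact permutation, adjusted p = 0.00909). Both genes passed the filter only through busulfan libraries. In Con, Tie1 was at 0.77 to 1.14 FPKM and Tek at 0.94 to 0.98, so this ratio rests on low values and is a description. Vwf over Cdh5 was 0.389, 0.421 and 0.554 in IMA10, 0.607, 0.701 and 0.773 in IMC and 0.725, 0.619 and 0.701 in Sa, against 2.07, 1.502 and 1.445 in Con. Vwf was thus below Cdh5 in each busulfan library and above it in each Con library, a difference of -1.47 (exact permutation, adjusted p = 0.00909). Without IMA10 replicate 3 the differences were -2.37 for Flt1 over Kdr, 0.94 for Tie1 over Tek and -1.45 for Vwf over Cdh5 (exact permutation, adjusted p = 0.0121 each). The busulfan and Con libraries may also differ by batch, as above, and within the Con prefix there is 1 group only.

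The other ratios to Cdh5 did not pass. Pecam1 over Cdh5 differed by -0.31 (exact p = 0.1, adjusted p = 0.136), Eng over Cdh5 by -0.32 (exact p = 0.114, adjusted p = 0.136) and Esam over Cdh5 by -0.20 (exact and adjusted p = 0.291). Esam over Cdh5 ran from 0.842 to 1.21 in the busulfan libraries and was 1.66, 1.03 and 0.859 in Con, so the groups overlapped. Its difference rests on 1 library, being 0.07 without Con replicate 1.

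**Figure D3:**
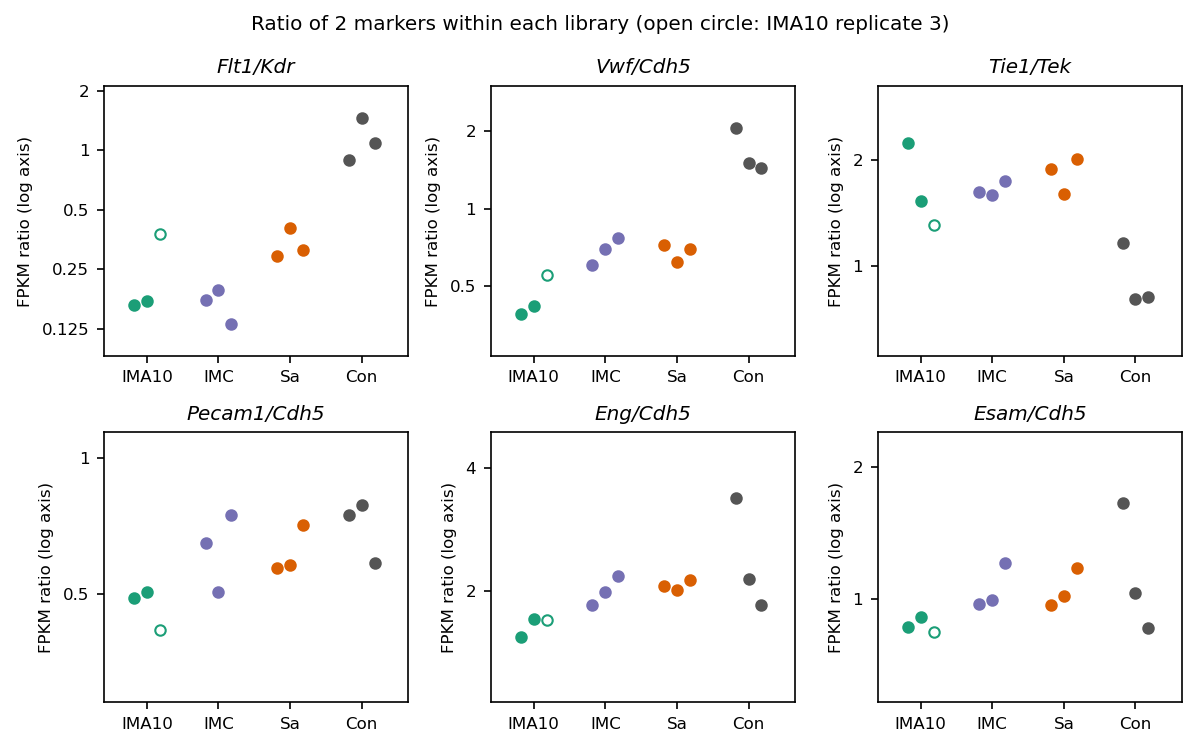
Ratio of FPKM of 2 endothelial genes within each library (points), in IMA10, IMC, Sa and Con, on log y axes that differ between panels; the open circle is IMA10 replicate 3. Flt1 over Kdr and Vwf over Cdh5 are lower, and Tie1 over Tek is higher, in all 9 busulfan libraries than in any Con library.

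The receptor pairs Tie1 with Tek and Kdr with Flt1 are shown with the 300 bases around their annotated starts (250 before and 50 after). The promoters of each pair can thus be set side by side. The Tie1 over Tek ratio rests on low values in Con and is a description, as above. Sequences are those of RefSeq on GRCm38.p6, whose promoter table matched 5 of the 9 genes (Tie1, Tek, Kdr, Flt1 and Eng). Capitals mark 4 motifs, each in either orientation, with no base in 2 of them. CAGGAA is a core of sites that ETS family factors bind, and so is CCGGAA. The GATA factor motif searched was AGATAA, and the TATA box was searched as TATAAA.
Tie1: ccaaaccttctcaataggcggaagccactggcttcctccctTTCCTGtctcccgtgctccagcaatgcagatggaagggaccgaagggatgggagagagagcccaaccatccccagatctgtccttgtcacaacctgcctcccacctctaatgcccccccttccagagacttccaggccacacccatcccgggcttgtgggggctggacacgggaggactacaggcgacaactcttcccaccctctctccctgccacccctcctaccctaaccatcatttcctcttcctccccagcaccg
Tek: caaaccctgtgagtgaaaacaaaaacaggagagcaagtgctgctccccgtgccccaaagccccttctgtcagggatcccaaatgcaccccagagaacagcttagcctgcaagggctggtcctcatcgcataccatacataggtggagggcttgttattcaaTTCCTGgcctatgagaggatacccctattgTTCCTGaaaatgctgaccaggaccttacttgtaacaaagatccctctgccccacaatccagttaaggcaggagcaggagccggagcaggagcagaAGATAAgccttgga
Kdr: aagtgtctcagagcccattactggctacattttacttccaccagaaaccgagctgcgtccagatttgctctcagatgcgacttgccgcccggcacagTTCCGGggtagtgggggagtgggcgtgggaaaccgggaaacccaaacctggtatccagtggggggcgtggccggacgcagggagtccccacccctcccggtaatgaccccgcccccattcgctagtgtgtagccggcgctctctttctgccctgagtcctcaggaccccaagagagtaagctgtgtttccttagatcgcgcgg
Flt1: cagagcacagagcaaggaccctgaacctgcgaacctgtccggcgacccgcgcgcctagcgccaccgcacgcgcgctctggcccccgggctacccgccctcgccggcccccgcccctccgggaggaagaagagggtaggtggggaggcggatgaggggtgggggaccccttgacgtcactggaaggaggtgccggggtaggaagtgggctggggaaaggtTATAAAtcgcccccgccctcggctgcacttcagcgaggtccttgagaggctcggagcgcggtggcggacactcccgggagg

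The windows are chr4:118489800-118490099 on the minus strand for Tie1, chr4:94739039-94739338 on the plus strand for Tek, chr5:75978406-75978705 on the minus strand for Kdr and chr5:147725962-147726261 on the minus strand for Flt1. CAGGAA occurred 1 time at Tie1 and 2 times at Tek, and CCGGAA occurred 1 time at Kdr. At least 1 of these 2 motifs was found in 4 of the 5 matched genes, Eng included, and in 41.4% of 27025 promoters of the same length. Flt1 held neither in this window but held TATAAA, which 14.2% of promoters hold. AGATAA was found at Tek and in 11.4% of promoters. The GC content was 60.3% at Tie1, 52.0% at Tek, 60.7% at Kdr and 70.7% at Flt1.

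The genes around the VEGF receptors did not all move alike. Of 8 VEGF ligands and co-receptors, 6 rose in Sa, 5 in IMC and 5 in IMA10, against 52.0% (Sa), 50.8% (IMC) and 47.7% (IMA10) of all genes. Of the 8, 4 passed the filter only through busulfan libraries, and of the 4 genes that reached it in Con, 2 rose in Sa, 1 in IMC and 1 in IMA10. Vegfd, a ligand of VEGFR3 and in humans also of VEGFR2, had the highest mean over the 12 libraries, though not in Con. It had 11.6, 14.2 and 4.16 FPKM in IMA10, 7.76, 11.9 and 18.4 FPKM in IMC and 5.98, 14.6 and 13.5 FPKM in Sa, against 0.99, 1.17 and 1.08 FPKM in Con (Sa change 2.49 ± 0.45, adjusted p = 0.000805). Vegfb, a ligand of VEGFR1, had the smallest p and rose by 1.14 ± 0.18 in Sa (adjusted p = 0.00042). Of the genes that did not pass in Sa, Pgf, another VEGFR1 ligand, changed by -0.03 (adjusted p = 0.875) and Flt4 by 0.33 (adjusted p = 0.467).

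Of the 4 angiopoietin and TIE partner genes, 1 passed the filter, and only through busulfan libraries. Ptprb, the phosphatase that acts on TIE2, had 2.76, 3.30 and 1.07 FPKM in IMA10, 3.36, 2.48 and 3.12 FPKM in IMC and 2.87, 3.89 and 5.08 FPKM in Sa, against 0.82, 0.99 and 0.83 FPKM in Con. It rose by 1.37 ± 0.27 in Sa (adjusted p = 0.00124), by 1.08 in IMC and by 0.78 in IMA10, where the call was lost without IMA10 replicate 1 or 2 or any 1 Con library. The ligands Angpt1, Angpt2 and Angpt4 stayed under the filter, with Angpt2 at 0.22 to 0.92 FPKM in IMA10, 0.77 to 0.87 in IMC, 0.63 to 1.25 in Sa and 0.44 to 0.58 in Con.

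Around endoglin, 12 of 14 tested TGF-beta and BMP pathway genes rose in Sa and 1 fell (median 2.10), with 12 rises in IMC and 11 in IMA10. Of the 8 that reached the filter in Con alone, 6 rose in Sa, 6 in IMC and 5 in IMA10, and 1 fell in each. Over all genes, 52.0% (Sa), 50.8% (IMC) and 47.7% (IMA10) rose. Among all genes that reached the filter in Con, 44.4% (Sa), 43.1% (IMC) and 41.2% (IMA10) rose. Tgfb1, a ligand, had the highest mean over the 12 libraries, though not in Con, with 85.6, 73.6 and 18.3 FPKM in IMA10, 53.2, 66.4 and 65.5 FPKM in IMC and 58.8, 52.1 and 56.9 FPKM in Sa, against 6.79, 5.54 and 4.83 FPKM in Con. Tgfb3, with the smallest p, rose by 3.45 ± 0.51 in Sa (adjusted p = 0.000369). Smad6, an inhibitory SMAD, was the 1 that fell, with 1.04, 1.98 and 12.1 FPKM in IMA10, 3.45, 3.63 and 3.25 FPKM in IMC and 5.43, 3.73 and 3.22 FPKM in Sa, against 15.5, 15.9 and 15.4 FPKM in Con. In Sa it changed by -1.71 (adjusted p = 0.016).

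Of 9 genes of cell junctions and cell adhesion, catenins that bind VE-cadherin among them, 8 rose in each busulfan group (median 2.53 in Sa). All 9 reached the filter in Con, and of all genes that did so 44.4% (Sa), 43.1% (IMC) and 41.2% (IMA10) rose. Ctnnb1, the beta-catenin that binds cadherin tails in most cell types, had 161, 159 and 61.0 FPKM in IMA10, 149, 138 and 161 FPKM in IMC and 154, 159 and 168 FPKM in Sa, against 25.6, 30.1 and 25.2 FPKM in Con. Mcam, an adhesion molecule of endothelial cells and pericytes, had the smallest p in Sa (2.30 ± 0.22, adjusted p = 0.00013). Of the 6 listed partners of von Willebrand factor, Thbs1, a secreted matrix protein, alone passed the filter, and only through busulfan libraries, at 0.43, 0.48 and 0.28 FPKM in Con. Its change in Sa was 2.00 ± 0.33 (adjusted p = 0.000526).

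Notch pathway genes rose in 7 of 9 tested cases in Sa, 6 in IMC and 5 in IMA10, and 1 fell in each (median 1.02 in Sa), against 52.0% (Sa), 50.8% (IMC) and 47.7% (IMA10) of all genes that rose. Of the 4 that reached the filter in Con, 2 rose in Sa, 1 in IMC and 1 in IMA10. The one that fell was the ligand Jag1, at 1.97, 2.36 and 1.69 FPKM in IMA10, 2.43, 1.97 and 2.47 FPKM in IMC and 2.94, 3.05 and 3.35 FPKM in Sa, against 15.4, 15.7 and 15.2 FPKM in Con (Sa change -2.001 ± 0.15, adjusted p = 3.86e-05). Hes1, a target of Notch in many tissues and with the highest mean of the list over the 12 libraries, rose by 2.43 ± 0.40 in Sa. Of 6 genes of arterial or venous identity, 5 rose in each busulfan group (median 1.87 in Sa), against the same shares of all genes. Of the 4 that reached the filter in Con, 3 rose. The changes in Sa were 2.58 ± 0.46 for the venous Ephb4 and 2.19 ± 0.32 for the venous Nr2f2. They were 1.61 ± 0.26, 2.13 ± 0.35 and 1.01 ± 0.21 for the arterial Efnb2, Gja4 and Gja5. Sox17 did not pass with all libraries, at -0.51 in Sa, -0.76 in IMC and -0.71 in IMA10.

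The lymphatic genes did not move as 1 group. Prox1, the factor that specifies lymphatic endothelium, fell to 0.17, 0.36 and 1.06 FPKM in IMA10, 0.29, 0.14 and 0.71 FPKM in IMC and 0.39, 0.27 and 0.41 FPKM in Sa, against 2.51, 3.68 and 3.25 FPKM in Con (Sa change -1.60 ± 0.23, adjusted p = 0.000361). Flt4, which encodes VEGFR3, had 4.09, 5.81 and 1.13 FPKM in IMA10, 5.66, 4.25 and 9.93 FPKM in IMC and 3.13, 3.92 and 5.25 FPKM in Sa, against 2.87, 3.16 and 2.94 FPKM in Con and did not pass in any of the 3 comparisons. Of the 5 genes, 3 rose in Sa, where 52.0% of all genes rose, and all 3 passed the filter only through busulfan libraries.

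A further 32 endothelial genes were set beside the 9. Of the 30 tested, 27 rose in Sa, in IMC and in IMA10 (medians 1.38, 1.11 and 0.82), and none fell by limma's test with all libraries, while 2 fell in each comparison without IMA10 replicate 3. However, 20 of the 30 passed the filter only through busulfan libraries, and of the 10 that reached it in Con, 7 rose in Sa, 7 in IMC and 8 in IMA10. Over all genes, 52.0% (Sa), 50.8% (IMC) and 47.7% (IMA10) rose. Of all genes that reached the filter in Con, 44.4% (Sa), 43.1% (IMC) and 41.2% (IMA10) rose. In IMA10 the 27 became 12 without IMA10 replicate 1, 14 without IMA10 replicate 2, 17 without Con replicate 1 and 14 without Con replicate 2 or 3, and 27 without IMA10 replicate 3. Cldn5, a claudin of endothelial tight junctions that Sertoli cells also make, had the highest mean, at 50.9, 51.3 and 15.7 FPKM in IMA10, 42.1, 42.0 and 53.0 FPKM in IMC and 45.6, 51.9 and 76.6 FPKM in Sa, against 9.69, 10.6 and 6.94 FPKM in Con. Ets1, a transcription factor of endothelial and blood cells, rose by 1.63 ± 0.16 in Sa (adjusted p = 0.000126). The 9 genes amounted to 32.5% to 41.6% of the summed FPKM of these 32 in busulfan libraries and 34.0% to 40.1% in Con. In linear FPKM the sum of the 32 was 5.13-fold (Sa), 4.39-fold (IMC) and 3.62-fold (IMA10) that of Con. For the 9 genes it was 5.17-fold (Sa), 4.58-fold (IMC) and 3.60-fold (IMA10). The log2(FPKM + 1) medians understate the change of low genes, so the medians of the 2 lists are not directly comparable.

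**Figure D4:**
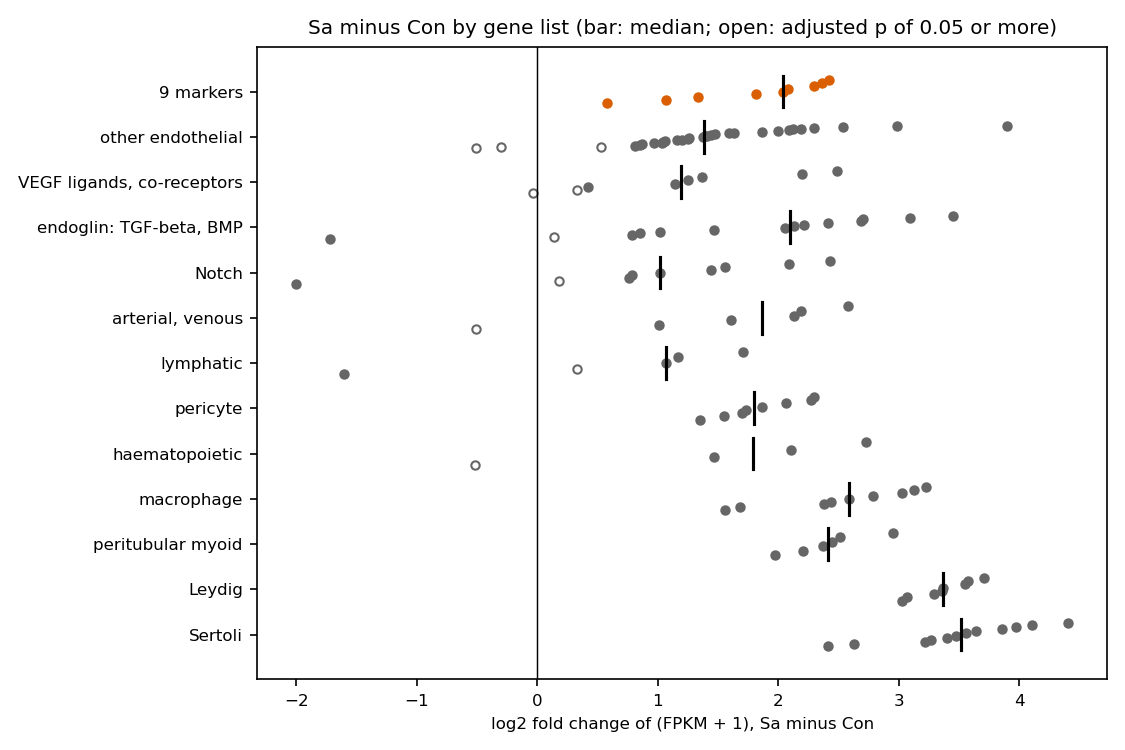
Log2 change of (FPKM + 1), Sa minus Con, for each tested gene (points) of the 9 endothelial markers and of 12 other gene lists, with the list median as a bar; open points have an adjusted p of 0.05 or more. On this scale the endothelial median of 2.04 lies below the medians of Sertoli (3.52), Leydig (3.36), macrophage (2.59) and peritubular myoid (2.41) genes. The scale understates the change of genes that are low in Con, so the order of the medians also depends on level.

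Markers of the other somatic cells of the testis were higher in the busulfan groups as well, where 52.0% of all genes rose in Sa. All 12 Sertoli genes rose in Sa (median 3.52), as did all 8 Leydig genes (3.36) and all 6 peritubular myoid genes (2.41). All 8 pericyte genes (1.80) and all 9 macrophage genes (2.59) rose there too. Of these, 2 Sertoli, 5 pericyte and 2 macrophage genes passed the filter only through busulfan libraries. The part of the other somatic cells in the endothelial results was not tested. Clu, an abundant secreted product of Sertoli cells, had 10873, 8288 and 1834 FPKM in IMA10, 7373, 7233 and 8678 FPKM in IMC and 5672, 5713 and 6919 FPKM in Sa, against 385, 346 and 325 FPKM in Con. The Sertoli sum was 19.0-fold (IMA10, and 26.0-fold without replicate 3), 20.7-fold (IMC) and 16.5-fold (Sa) that of Con, and the Leydig sum 8.28-fold (IMA10, and 10.95-fold without replicate 3), 12.6-fold (IMC) and 10.9-fold (Sa). The endothelial sum amounted to 0.635% to 1.37% of the Sertoli sum in busulfan libraries, against 3.46% to 4.14% in Con, and to 0.766% to 2.13% of the Leydig sum, against 2.55% to 3.49% in Con. It was 20.7% to 29.1% of the peritubular myoid sum in busulfan libraries, against 30.9% to 37.3% in Con. None of these 3 shares overlapped between busulfan and Con libraries, whereas 3 others did. They were the share of the pericyte sum, at 145% to 211% in busulfan libraries and 184% to 214% in Con, that of the macrophage sum, at 26.1% to 47.6% in busulfan libraries and 46.98% to 64.97% in Con, and that of the pan-leukocyte sum, at 242% to 507% in busulfan libraries and 331% to 377% in Con.

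Blood cells carry some of the same transcripts, Pecam1, Esam and Vwf in platelets among them. Of 10 platelet and megakaryocyte genes 2 passed the filter, both only through busulfan libraries. The change of Pf4 in Sa was 2.13 ± 0.34 (adjusted p = 0.000427), and Gp1bb was at 3.19, 2.37 and 4.60 FPKM in Sa (adjusted p = 0.0661) and listed at 0 in the 3 Con libraries. Both genes rose in IMC and in IMA10, where 50.8% (IMC) and 47.7% (IMA10) of all genes rose. Gp1bb had 24.61, 14.97 and 0 FPKM in IMA10 and 11.75, 7.32 and 8.92 FPKM in IMC. The summed level of the 10 genes was 2.35 to 30.4 FPKM in IMA10, 17.0 to 18.2 in IMC, 9.93 to 14.2 in Sa and 1.43 to 2.16 in Con, while Ppbp, a defining platelet gene, was at 0.17 FPKM or less in every library. Of 4 tested pan-leukocyte genes 3 rose in each busulfan group, against 52.0% (Sa), 50.8% (IMC) and 47.7% (IMA10) of all genes. Of the 2 that reached the filter in Con, 1 rose in each. Laptm5 rose by 2.73 ± 0.38 in Sa, whereas Vav1 changed by -0.52 ± 0.28 and did not pass (adjusted p = 0.117). Of 4 tested red cell genes 2 rose in Sa, Hba-a1 and Alas2, against 52.0% of all genes. Hba-a1, whose separation from its near-identical copy Hba-a2 is uncertain, was 149, 234 and 269 FPKM in Sa, against 38.7, 21.1 and 34.0 FPKM in Con. Hbb-bs was 0.23, 0.23 and 0 FPKM in Sa, against 0, 5.27 and 2.07 FPKM in Con, a change of -1.22 (adjusted p = 0.311), and Hbb-bt was listed at 0 in the 3 Sa libraries. Among epididymal genes only Rnase10 could be tested, and it did not rise (Sa change -1.12, adjusted p = 0.0714). How far blood left in the vessels enters the endothelial values was not tested.

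Between the busulfan groups no endothelial gene changed in the fit with all libraries. In IMA10 minus Sa, 0 of 9 passed limma's test with all libraries, where 0 of 15472 genes passed (0%), and all 9 changes were negative, between -0.89 and -0.24 with a median of -0.66. The median over all genes was -0.19, and 2944 of the 15472 genes had a positive change, so most genes were lower in IMA10 as well. Vwf had the smallest p, with 6.58, 5.90 and 2.67 FPKM in IMA10 and 8.60, 8.48 and 12.4 FPKM in Sa (change -0.89 ± 0.27, adjusted p = 0.651). Flt1 followed with -0.66 ± 0.23 (adjusted p = 0.682). For both genes the IMA10 libraries lay wholly below the Sa libraries, as 7.17% of all genes did. At an unadjusted p under 0.05 there were 3 of the 9, with Tek, and 928 of all genes.

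IMA10 replicate 3 decides much of this. Without it, 4931 genes changed in IMA10 minus Sa (1136 up and 3795 down), and Vwf was the 1 endothelial gene among them (-0.56, adjusted p = 0.0375). Flt1 then changed by -0.44 (adjusted p = 0.0964), and the median of the 9 was -0.22.

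In IMA10 minus IMC, 0 of 9 passed limma's test, as did 0 of all genes (0%), and the 9 changes ran from -0.72 to -0.16 (median -0.44, against -0.14 over all genes). Most genes were lower here too, with a positive change in 4547 of 15472. Vwf was again first (-0.72 ± 0.27, adjusted p = 1), its IMA10 libraries below the IMC libraries of 7.80, 7.93 and 9.82 FPKM, as 2.88% of all genes were. Tek followed (-0.36 ± 0.22, adjusted p = 1). At an unadjusted p under 0.05 there were 1 of the 9 and 328 of all genes. Without IMA10 replicate 3 the median was 0.02 and Vwf changed by -0.39 (adjusted p = 0.196).

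In IMC minus Sa, 0 of 9 passed limma's test, as did 0 of all genes (0%), and 0 of the 9 and 134 of all genes had an unadjusted p under 0.05. The changes ran from -0.50 to 0.34 with a median of -0.20, against -0.06 over all genes. A positive change was found in 5987 of 15472 genes. Flt1 was lowest, at 3.12, 2.47 and 2.58 FPKM in IMC and 3.20, 4.30 and 5.49 FPKM in Sa, without overlap (-0.50 ± 0.23, adjusted p = 1), and 6.02% of all genes lay that way. Tie1 was next by p (-0.31 ± 0.33, adjusted p = 1), and Kdr had the 1 positive change (0.34 ± 0.46). These misses do not show that the groups had equal levels.

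The balance of Flt1 and Kdr within a library was also set side by side between busulfan groups, a choice made after the data were seen. The mean log2 ratio was -2.59 in IMC and -1.58 in Sa, a difference of -1.005 with no overlap (exact permutation p = 0.1, the smallest that 3 against 3 allows). Vwf over Cdh5 was lower in IMA10 than in Sa by 0.60 and than in IMC by 0.62 in mean log2 ratio, and its 3 IMA10 values were below every IMC and Sa value (exact permutation p = 0.1 each). Of 18 such comparisons 9 had this smallest p. All but 1 of these 9 share Cdh5 as the denominator and IMA10 as a group, so they are not independent of each other.

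Outside the 9 genes, 8 genes had a profile over the 12 libraries closest to the mean profile of the 9, measured by the root mean square difference of centred log2 values. They were Ccn2 (0.112), Egfl7 (0.123), Col4a2 (0.125), Abcb10 (0.134), Itm2a (0.135), Frmd6 (0.135), Actn1 (0.145) and Fgfr1 (0.146). For comparison, the same difference was 0.106 for Tie1, 0.162 for Pecam1, 0.367 for Kdr and 0.614 for Flt1, each of which enters the mean profile. Ccn2 had 41.2, 52.1 and 18.3 FPKM in IMA10, 51.6, 38.5 and 48.8 FPKM in IMC and 43.5, 50.8 and 69.4 FPKM in Sa, against 14.2, 15.3 and 13.98 FPKM in Con. Egfl7, a secreted protein of endothelial cells, had 12.9, 11.1 and 3.80 FPKM in IMA10, 12.1, 10.8 and 13.2 FPKM in IMC and 11.8, 13.0 and 16.0 FPKM in Sa, against 4.48, 3.51 and 3.51 FPKM in Con. The points of these profiles share their libraries, so the likeness is a description.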

How the data were processed

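The study sequenced RNA of mouse testis in 12 libraries. Values are FPKM as deposited, named so per the file headers, with 1 column per library. The aligner, genome build, annotation and counting settings were not given in the sources used here. The design text calls the testis cultured without describing a culture. The depth is unknown, because low values showed no steps of 1 read (at most 1.28% of low genes shared a ratio between 2 libraries). FPKM sums were 476127 to 519355 in busulfan libraries and 569055 to 576093 in Con. Symbols came from a RefSeq table (GRCm38.p6), which matched 20141 of 20288 numeric Gene IDs.

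The 15472 genes that reached 1 FPKM in 3 or more libraries were fitted as log2(FPKM + 1) in limma 3.58.1 (R 4.3.3), with 1 mean per group over all 12 libraries and a variance trend. P-values were adjusted by Benjamini-Hochberg over all genes, and under 0.05 counts as changed. Such fold changes understate the change of low genes. The procedure was tested on simulated data. Ratios used log2(FPKM + 0.01) and exact permutation over all arrangements of the libraries (Python 3.11.15 with numpy 2.4.6). Whether the libraries of a group are separate animals is not labelled, and p-values reflect only the spread among these libraries, which may be technical.

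The members, the 19 other gene lists and the ratios were chosen with earlier results of these data known. Named are all 9 members, in comparisons between busulfan groups the 2 with the smallest p, of each other list the gene with the highest mean and the one with the smallest p in Sa minus Con, and the 8 most alike genes with a mean of at least 5 FPKM. Other genes named were chosen after their values were seen (Pgf, Smad6, Flt4 as a VEGF receptor, Ppbp, Angpt2, Alas2, Hbb-bs, Hbb-bt and Fpgs). So were Efnb2, Gja4, Gja5, Sox17 and Vav1. Counts over genes with at least 1 FPKM in all Con libraries were also added after the data were seen. Alternatives were 2 scalings, a pseudocount of 0.1, a filter of 5 FPKM or none, fitting 2 groups alone, a block for replicate number, and leaving out each library.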

Additional observations from a re-analysis of the deposited data

How the results depend on the processing

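Of 614 settings for single endothelial genes, 565 kept direction and side of the threshold, as did 80 of 84 for ratios. Of 342 summaries 319 stayed close, and of 1083 list counts 1020. Many settings could not turn a direction, so these counts are a description. Filters, the 2-group fit, the replicate block and leaving out a library of another group keep the log2 change (2.36 for Cdh5 in Sa minus Con). Between busulfan groups nothing had passed, so no call could be lost. Where a cause is not given by the construction of the alternative, it was not tested. The median change of the 9 genes was 1.44 with median-of-ratios scaling, 1.41 with quantile normalization and 2.55 with a pseudocount of 0.1 in Sa minus Con (1.81 to 2.18 leaving out 1 library). In IMC minus Con it was 1.37, 1.32 and 2.38 in the same order and 2.13 with a filter of 5 FPKM, which leaves fewer genes (1.73 to 2.05 leaving out 1 library). Under the 2 scalings Flt1 turned to -0.033 and -0.13 in Sa minus Con and to -0.45 and -0.51 in IMC minus Con, and in IMA10 minus Con median-of-ratios scaling turned Vwf to -0.0055 and made Flt1 a fall (-0.51, adjusted p = 0.0488). Flt1 in IMA10 minus Con ranged from -0.23 to 0.14 leaving out 1 library (0.01 without Con replicate 2). The number of the 9 changed in IMA10 minus Con was 4 with quantile normalization, 4 with only the 2 groups fitted and 4 to 8 leaving out 1 library.

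Genes changed in IMC minus Sa were 1 with a pseudocount of 0.1 and 1 with no filter. In IMA10 minus Sa they were 1 and 2, and 0 to 4931 leaving out 1 library, with 0 to 1 of the 9 among them. In IMA10 minus IMC they were 0 to 2. With only Sa against Con, where 3 against 3 cannot pass, the ratios differed by -1.75 for Flt1 over Kdr, 0.99 for Tie1 over Tek and -1.27 for Vwf over Cdh5 (exact permutation, adjusted p = 0.2 each). Esam over Cdh5 ranged from -0.40 to 0.068 leaving out 1 library.

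Replicate numbers did not pair the samples: 5 of 18 same-numbered pairs correlated above 0.1 (range -0.765 to 0.546), and 1 of 12 libraries correlated best with its own number. With the replicate block, 10301 genes and 8 of the 9 changed in Sa minus Con, 10552 and 8 in IMC minus Con, 9989 and 6 in IMA10 minus Con, and 0 between busulfan groups; Flt1 in Sa (adjusted p = 0.0692) and Tek in IMA10 (0.0862) no longer passed.

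Of the other endothelial genes, 15 (Sa), 11 (IMC) and 10 (IMA10) rose with quantile normalization, and 11, 11 and 12 with a filter of 5 FPKM. In IMA10 it was 16 with median-of-ratios scaling and 13 with the 2 groups fitted. The number of libraries and the unknown depth limit precision, and values under 1 FPKM are the least certain.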
